A study of Mus musculus with 9 samples.

Results

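A set of 9 genes that encodes the PGC-1 coactivators and the transcription factors and cofactors they work with was followed in mouse gastrocnemius: Ppargc1a, Ppargc1b, Nrip1, Esrra, Esrrg, Ppara, Ppard, Nrf1 and Tfam. They were chosen by name, as the rows of the count tables that carry these 9 symbols, out of 23238 symbols, and all 9 were among the 12859 genes with enough counts to be tested. The muscles came from female C57BL/6 mice aged 4 weeks, in 3 groups of 3 libraries. The Normal group had 4 saline injections, 1 every other day, and water by mouth for 9 days. The Cisplatin group had 4 intraperitoneal injections of 3 mg/kg cisplatin, a platinum chemotherapy drug, on the same schedule, with water by mouth. The RP group had the same cisplatin and 100 mg/kg of RP by mouth for 9 days; the study's title concerns an extract of Paeonia lactiflora and muscle-specific E3 ligases, and no group had RP without cisplatin. The labels do not say that each library is a separate mouse, so the p-values speak only of the spread among these 9 libraries.

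PGC-1α and PGC-1β, the products of Ppargc1a and Ppargc1b, are coactivators: they bind no DNA themselves but are recruited by nuclear receptors and other factors and switch on genes of mitochondrial respiration and fatty acid oxidation. In skeletal muscle they act with the estrogen-related receptors ERRα and ERRγ (Esrra, Esrrg) and with the fatty acid sensors PPARα and PPARδ (Ppara, Ppard). They also act with nuclear respiratory factor 1 (Nrf1), which binds promoters of respiratory genes and of Tfam, whose product packages and transcribes mitochondrial DNA. RIP140, the product of Nrip1, is a corepressor that opposes this programme. PGC-1α and ERRγ are known for high expression in oxidative muscle fibres.

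Libraries held 8196030 to 10678342 counts over 14756 to 15527 genes. Rn45s, a ribosomal RNA gene, held between 12.6 and 12.8% of all counts in the Normal libraries, between 9.23 and 12.1% in the Cisplatin libraries and between 7.38 and 11.8% in the RP libraries. Levels are given as CPM, the share of a library's counts on a per-million scale, adjusted between libraries with TMM. The method reads tags near the 3′ end of a transcript, so CPM is not divided by gene length, and levels are compared between groups, not between genes. The 12 markers of skeletal muscle fibres summed to between 93360 and 143758 CPM in every library, as the tissue label says.

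The start regions of 4 of the genes are printed because they hold a short motif of factors in this network: Ppargc1a and Esrrg, whose levels moved together over the libraries (below), and Tfam and Ppara. Each line is the 250 bases before a RefSeq transcript start on GRCm38.p6, with the motif found in capitals. Matches were searched on both strands and positions count back from the start to the motif's first base.
Ppargc1a (chr5:51567726-51567975, minus strand): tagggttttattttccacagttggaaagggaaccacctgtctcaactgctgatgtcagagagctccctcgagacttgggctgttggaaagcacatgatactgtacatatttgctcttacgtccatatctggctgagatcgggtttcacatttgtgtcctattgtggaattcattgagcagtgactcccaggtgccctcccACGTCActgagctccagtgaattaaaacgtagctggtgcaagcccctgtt
Esrrg (chr1:187608756-187609005, plus strand): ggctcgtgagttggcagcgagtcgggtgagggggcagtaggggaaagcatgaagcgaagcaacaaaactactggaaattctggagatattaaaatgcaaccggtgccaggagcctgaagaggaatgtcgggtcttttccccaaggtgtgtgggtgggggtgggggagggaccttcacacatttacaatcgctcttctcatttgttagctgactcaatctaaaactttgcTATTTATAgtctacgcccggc
Tfam (chr10:71238045-71238294, minus strand): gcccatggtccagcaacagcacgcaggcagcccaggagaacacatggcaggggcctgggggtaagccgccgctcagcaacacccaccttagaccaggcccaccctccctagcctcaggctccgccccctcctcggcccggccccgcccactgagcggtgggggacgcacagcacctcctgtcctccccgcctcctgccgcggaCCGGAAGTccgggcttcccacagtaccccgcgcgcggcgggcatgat
Ppara (chr15:85735526-85735775, plus strand): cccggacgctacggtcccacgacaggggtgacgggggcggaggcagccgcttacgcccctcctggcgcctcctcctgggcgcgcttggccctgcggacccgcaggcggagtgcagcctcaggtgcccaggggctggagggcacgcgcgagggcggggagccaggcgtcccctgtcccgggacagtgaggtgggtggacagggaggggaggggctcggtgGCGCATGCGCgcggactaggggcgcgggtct
The Ppargc1a window holds TGACGT, the half-site of CREB family factors, on the reverse strand, 50 bases before the start; 6.469% of 32851 RefSeq windows of this length hold it. The first of 4 Esrrg windows holds TATTTATA, a MEF2 core sequence, 21 bases before the start, found in 1.562% of windows. The Tfam window holds CCGGAAGT, the core bound by ETS factors such as GABP, 47 bases before the start, found in 2.877% of windows. The Ppara window holds the NRF1 core GCATGCGC on both strands, overlapping, 31 and 29 bases before the start; 2.256% of windows hold it, and the Esrra window holds it as well, 34 bases before the start. The second of 2 Nrf1 windows holds TATTTATA, 98 bases before the start. The ERR half-site AAGGTCA, found in 4.079% of windows, was in none of the windows looked up, which covered 8 of the 9 genes, all but Ppargc1b. These matches describe letters in the windows and do not show binding.

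Ppargc1a (chr5:51454250-51567726, minus strand, GENCODE M21 on GRCm38) was lower after cisplatin and higher in the RP group than in the Cisplatin group. It stood at 72.0, 62.8 and 98.8 CPM in the Normal libraries, at 26.1, 19.7 and 34.3 CPM in the Cisplatin libraries and at 41.6, 64.0 and 62.5 CPM in the RP libraries. The Cisplatin libraries lay below all the others, while the Normal and RP ranges overlapped. Ppargc1a fell by 1.55 on the log2 scale after cisplatin (SE 0.23, adjusted p = 8.81e-05), 2.93-fold lower. It was 2.10-fold higher in RP than in Cisplatin (log2 1.07 ± 0.23 SE, adjusted p = 0.00172). The order was Normal, RP, Cisplatin, and the first 2 did not differ beyond their spread: log2 -0.48, with a 95% interval of -0.95 to 0.00, adjusted p = 0.397. A lower level in whole muscle can mean fewer cells that express a gene or less RNA in each, and these cannot be told apart here.

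Ppargc1b (chr18:61298136-61400431, minus strand), the second coactivator, took the same order with smaller differences. Its levels were 34.7, 28.1 and 42.7 CPM in Normal, 14.5, 17.5 and 24.9 CPM in Cisplatin, and 25.7, 35.3 and 30.8 CPM in RP. The highest Cisplatin library lay just below the lowest RP library, and Normal and RP overlapped. It fell by 0.89 (log2, SE 0.22, adjusted p = 0.00318) after cisplatin and rose by 0.69 (SE 0.21, adjusted p = 0.0163) in RP against Cisplatin. That second call was lost without Cisplatin 1 (adjusted p = 0.0699), without Cisplatin 2 (0.0573) and without RP 2 (0.0668). Within libraries, Ppargc1a had 2.21 ± 0.12 counts per count of Ppargc1b in Normal, 1.44 ± 0.34 in Cisplatin and 1.82 ± 0.21 in RP (SD, n = 3). Every Cisplatin ratio, from 1.13 to 1.80, was under every Normal ratio, from 2.08 to 2.31, so the Ppargc1a row was lower relative to Ppargc1b after cisplatin; this ratio was not tested.

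Nrip1 (chr16:76287400-76373827, minus strand), the corepressor, was the one regulator that passed in neither comparison with the Cisplatin group. It stood at 23.9, 34.9 and 30.6 CPM in Normal, 20.2, 23.0 and 24.7 CPM in Cisplatin, and 25.2, 22.9 and 33.4 CPM in RP, and all 3 ranges overlapped. Its log2 difference was -0.40 for Cisplatin against Normal (95% interval -0.79 to 0.00, adjusted p = 0.0862) and 0.26 for RP against Cisplatin (-0.14 to 0.66, adjusted p = 0.258). The first passed without Normal 1 (adjusted p = 0.0412), with library size as the only scaling (0.0343) and with a filter of 5 CPM (0.0419).

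**Figure D1:**
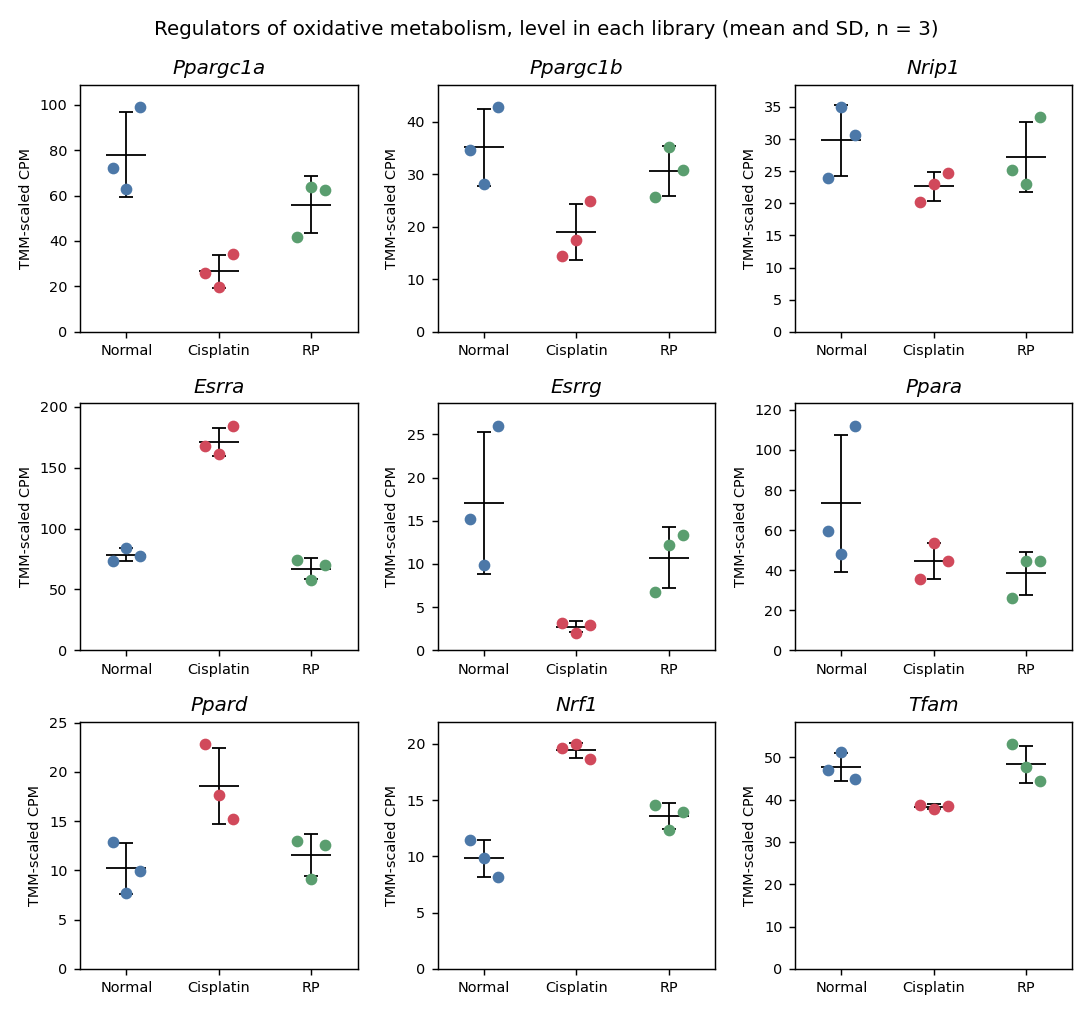
Level of each of the 9 regulators in every library (points, TMM-scaled CPM, linear axes from 0), by group, with the group mean (bar) and SD (whiskers, n = 3). Cisplatin libraries sit lowest for Ppargc1a, Ppargc1b, Esrrg and Tfam and highest for Esrra, Ppard and Nrf1; Normal 3, at 112.0 CPM, stands apart for Ppara.

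Esrrg (chr1:187608791-188214885, plus strand), which encodes ERRγ, had the largest fold change of the 9 in both comparisons with the Cisplatin group. It was at 15.2, 9.83 and 26.0 CPM in Normal and at 3.17, 1.996 and 2.97 CPM in Cisplatin, where the libraries held 27, 21 and 25 counts. In RP it was at 6.72, 12.2 and 13.3 CPM. The Cisplatin libraries lay below all the others, and Normal and RP overlapped. Esrrg fell by 2.65 (log2, SE 0.38, adjusted p = 6.43e-05) after cisplatin, 6.29-fold lower. It was 3.98-fold higher in RP than in Cisplatin (log2 1.99 ± 0.38 SE, adjusted p = 0.000798). RP against Normal gave log2 -0.66 (95% interval -1.38 to 0.06, adjusted p = 0.431).

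The Esrra row, by contrast, rose after cisplatin, but its counts cannot be assigned to Esrra alone. Esrra (chr19:6910977-6921813, minus strand), which encodes ERRα, ends tail to tail with Trmt112 (chr19:6909698-6911049, plus strand), which encodes a partner subunit of several methyltransferases. Their last exons share 73 bases, chr19:6910977-6911049, at the 3′ ends where the tags of this method fall. Esrra had 611, 728 and 645 counts in Normal, 1426, 1699 and 1550 in Cisplatin, and 717, 578 and 692 in RP. Trmt112 had 552, 678 and 533 counts in Normal, 1662, 2004 and 1822 in Cisplatin, and 712, 513 and 646 in RP. The 2 rows thus held similar counts and moved together in every library (Pearson r = 0.995 of log2 CPM over 9 libraries). An r this high was not particular to the overlapping gene: Wbp11 (0.995) and Hexa (0.994), which share no exon with Esrra, followed its row as closely.

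A check chosen after these values were seen asked how often genes whose ends overlap run together in these libraries. Over 179 gene pairs whose annotated 3′ ends overlap tail to tail, with at least 50 counts in the lower and 2000 in the higher gene, the median r was 0.794 and the median count ratio 2.38. Over 189 pairs that end towards each other within 1000 bases without overlapping, they were 0.113 and 6.77. These medians describe the pairs as sets. The share of Trmt112 reads in the Esrra row was not tested. The strand setting of the counting is not given in the sources used here, and reads of Esrra and of Trmt112 cannot be told apart. The Esrra row rose by 1.12 (log2, SE 0.13, adjusted p = 1.12e-05) in Cisplatin against Normal and fell by 1.35 (SE 0.13, adjusted p = 3.88e-06) in RP against Cisplatin. The Trmt112 row changed by 1.53 (SE 0.15, adjusted p = 2.62e-06) and -1.67 (SE 0.15, adjusted p = 2.07e-06). The Esrra row is therefore reported as the sum of what falls there. In the main edgeR fit, the number of regulators that passed in each comparison with the Cisplatin group is given with and without it. The other counts and medians of the regulators include the Esrra row. None of the other 8 genes shares an exon with another gene in the annotation.

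**Figure D2:**
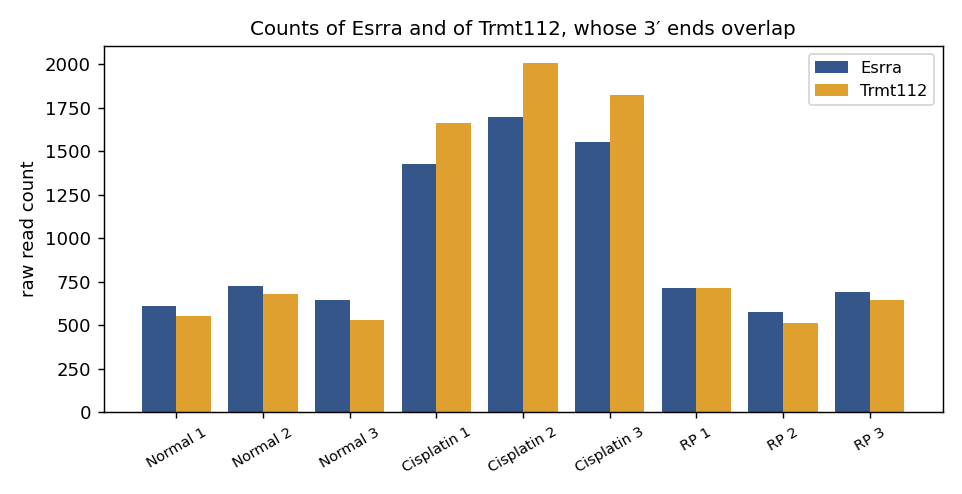
Raw read counts of Esrra and Trmt112 in each of the 9 libraries (bars from 0). The 2 rows are near each other throughout: 513 to 728 in Normal and RP and 1426 to 2004 in Cisplatin. Esrra is the lower of the 2 in every Cisplatin library and the higher in all others.

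Ppara (chr15:85734983-85802819, plus strand), which encodes PPARα, passed narrowly for a fall after cisplatin, a call that depended on single libraries. It was at 59.8, 48.2 and 112.0 CPM in Normal, 35.8, 53.7 and 44.7 CPM in Cisplatin, and 26.2, 44.7 and 44.5 CPM in RP. Normal and Cisplatin overlapped. Ppara fell by 0.71 (log2, SE 0.28, adjusted p = 0.0477) in Cisplatin against Normal; without Normal 3 the difference was -0.25 with an adjusted p of 0.408. The call was also lost without Cisplatin 1 (adjusted p = 0.154), Cisplatin 3 (0.0996), RP 2 (0.0513) or RP 3 (0.0591). Unlike the coactivators, Ppara was no higher in RP than in Cisplatin: log2 -0.22, 95% interval -0.83 to 0.39, adjusted p = 0.545.

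Ppard (chr17:28232700-28301474, plus strand), which encodes PPARδ, the PPAR known for its role in muscle, went the other way. It was at 12.9, 7.75 and 9.99 CPM in Normal, 22.8, 17.7 and 15.2 CPM in Cisplatin, and 13.0, 9.14 and 12.6 CPM in RP. Every Cisplatin library was above every other library. Ppard rose by 0.86 (log2, SE 0.24, adjusted p = 0.00698) after cisplatin, 1.82-fold. It fell by 0.68 (SE 0.23, adjusted p = 0.0260) in RP against Cisplatin, a call lost without Cisplatin 1 (adjusted p = 0.115) or RP 2 (0.108) and with library size as the only scaling (0.0889). Within libraries Ppard had 0.155 ± 0.064 counts per count of Ppara in Normal, 0.435 ± 0.174 in Cisplatin and 0.329 ± 0.152 in RP (SD, n = 3).

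Nrf1 (chr6:30047988-30153458, plus strand) rose after cisplatin while Tfam, a gene it is known to activate, did not. Nrf1 was at 11.5, 9.83 and 8.18 CPM in Normal, 19.6, 19.96 and 18.7 CPM in Cisplatin, and 14.6, 12.3 and 13.9 CPM in RP. The 3 groups did not overlap, with RP between the others. Nrf1 rose by 0.98 (log2, SE 0.18, adjusted p = 0.000458) in Cisplatin against Normal, 1.98-fold. It fell by 0.51 (SE 0.18, adjusted p = 0.0265) in RP against Cisplatin. That call was lost without Cisplatin 1 (adjusted p = 0.0577), Cisplatin 2 (0.0708) or RP 2 (0.0945), and with library size as the only scaling (0.118).

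Tfam (chr10:71225464-71238280, minus strand) was at 47.0, 51.2 and 44.9 CPM in Normal, 38.7, 37.6 and 38.5 CPM in Cisplatin, and 53.0, 47.6 and 44.3 CPM in RP. Cisplatin libraries lay below all the others by a small margin. Tfam fell by 0.32 (log2, SE 0.13, adjusted p = 0.0496) after cisplatin and rose by 0.34 (SE 0.13, adjusted p = 0.0430) in RP against Cisplatin. Both calls sat at the threshold: over 18 alternatives the first was lost in 14, among them the loss of any 1 of the 9 libraries, and the second in 13. Within libraries Nrf1 had 0.206 ± 0.033 counts per count of Tfam in Normal, 0.507 ± 0.023 in Cisplatin and 0.283 ± 0.029 in RP (SD, n = 3), and no 2 groups overlapped in this ratio.

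Counted together, 8 of the 9 regulators passed in Cisplatin against Normal, 3 higher (the Esrra row, Ppard, Nrf1) and 5 lower (Ppargc1a, Ppargc1b, Esrrg, Ppara, Tfam). Of all genes tested 54.5% passed there (26.3% risen and 28.2% fallen), so a passing gene is common in this comparison. Without the Esrra row the count was 7 of 8. In RP against Cisplatin 7 of the 9 passed, 4 higher and 3 lower, where 48.8% of all genes did (24.6% risen and 24.2% fallen); without Esrra it was 6 of 8. In each of these comparisons 7 of the 9 had groups that did not overlap, against 62.2% and 56.8% of all genes. These 2 comparisons share the Cisplatin libraries, so their opposite signs are not independent. The median log2 difference of the 9 was -0.40 in the first and 0.26 in the second, beside -0.08 and 0.07 over all genes.

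**Figure D3:**
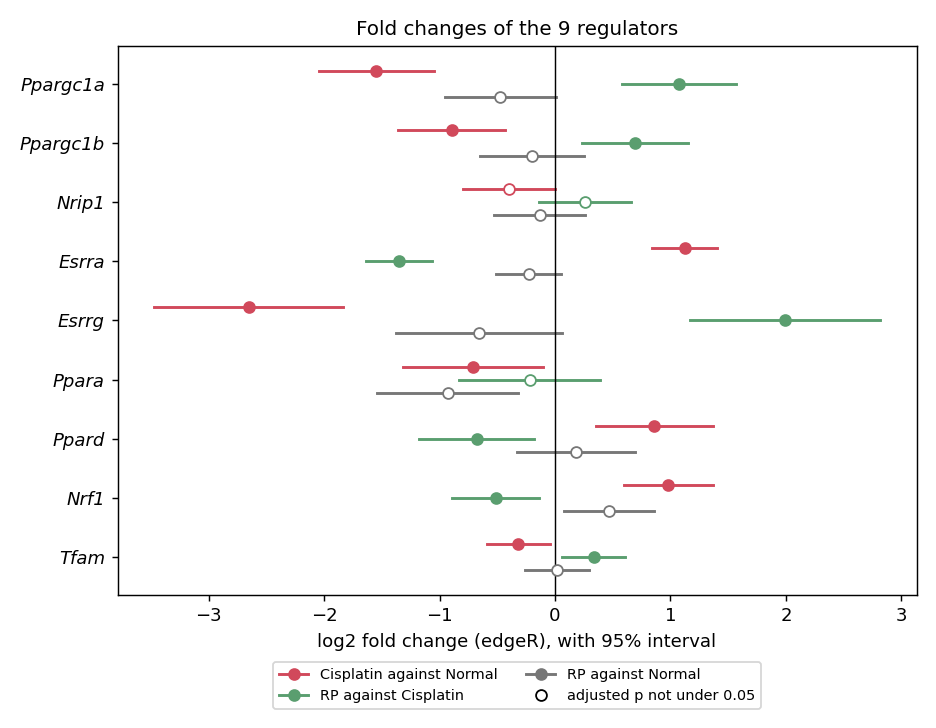
Log2 fold change of each regulator in the 3 comparisons with its 95% interval (lines); filled points passed an adjusted p of 0.05. In Cisplatin against Normal the points run from -2.65 (Esrrg) to 1.12 (Esrra), and no point passed in RP against Normal.

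In RP against Normal, 0 of the 9 passed with edgeR, and 0 with DESeq2 and with limma-voom. There 0.505% of all genes passed (0.187% risen and 0.319% fallen) and 19.2% had groups that did not overlap. At an unadjusted p under 0.05 there were 2. Ppara was lower in every RP library than in every Normal one (log2 -0.93, 95% interval -1.54 to -0.32, unadjusted p = 0.00582, adjusted p = 0.187); without Normal 3 the difference was -0.48 (adjusted p = 0.538). Nrf1 was higher in every RP library (0.47, 0.08 to 0.86, unadjusted p = 0.0223, adjusted p = 0.301). The intervals of the others still allow differences: for Ppargc1b -0.65 to 0.25, for Ppard -0.33 to 0.69, for Tfam -0.26 to 0.29, for Nrip1 -0.53 to 0.26 and for the Esrra row -0.51 to 0.05.

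Normal 3 was the highest Normal library for 4 of the 9 regulators, Ppargc1a, Ppargc1b, Esrrg and Ppara, and the lowest for Nrf1 and Tfam. Among the 12 fibre markers, 7 fell, 1 rose and 4 did not pass after cisplatin. The myosins of slow and oxidative fibres and some genes of fast fibres are given here, picked after their values were seen. Myh7, the slow myosin, was at 154, 15.96 and 221 CPM in Normal, 50.2, 3.803 and 5.23 CPM in Cisplatin, and 15.1, 23.2 and 34.5 CPM in RP. Myh2, the myosin of fast oxidative fibres, was at 2411, 1597 and 4964 CPM in Normal, 512, 603 and 738 CPM in Cisplatin, and 1034, 1465 and 1778 CPM in RP. Myh7 thus differed between libraries of the same group by more than the regulators did, and both myosins were highest in Normal 3, while Myh2 was lower in all Cisplatin libraries than in any other. Myh4, the myosin of fast glycolytic fibres, was lowest in Normal 3 of the Normal libraries, at 27228, 30217 and 20803 CPM, and did not pass after cisplatin (26083 ± 4810 CPM in Normal and 26304 ± 5019 in Cisplatin, SD, n = 3; log2 0.01, adjusted p = 0.966). Tnni2, the fast troponin I, was the 1 fibre marker that rose (0.55, adjusted p = 0.0168). Pvalb and Mylpf, also genes of fast fibres, were lower in every Cisplatin library than in any other. Pvalb was at 12215 ± 3205 CPM in Normal, 3477 ± 1237 in Cisplatin and 12101 ± 2237 in RP (SD, n = 3). Mylpf was at 15695 ± 1797, 6863 ± 750 and 17289 ± 1588 CPM in the same order. The part of fibre type makeup in the regulators' differences was not tested. Without Normal 3 the fall in Cisplatin against Normal was still called for Ppargc1a (-1.33, adjusted p = 0.000593), Ppargc1b (-0.71, adjusted p = 0.0213) and Esrrg (-2.20, adjusted p = 0.000310).

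Across the 9 libraries, Ppargc1a followed Esrrg (r = 0.977) and Ppargc1b (r = 0.937) and ran against Nrf1 (r = -0.932). These are Pearson correlations of log2(CPM + 1) over libraries that include the group differences, and serve as a description. Compared were 9057 other genes whose mean over the libraries reached 5 CPM. Unnamed gene models, such as Rik and Gm symbols, were left out. Those whose pattern was most like Ppargc1a among the genes compared were Mreg (r = 0.993), Fzd9 (0.976) and Ap1s2 (0.975). Those most like Esrrg were Casq2 (0.984), which encodes the calsequestrin of slow and cardiac muscle, Mreg (0.979) and Higd1a (0.975). Casq2 was at 97.7, 57.9 and 206.8 CPM in Normal, 13.9, 9.22 and 14.99 CPM in Cisplatin, and 63.1, 79.4 and 98.5 CPM in RP, so it too was highest in Normal 3 and lowest in the Cisplatin libraries. For Ppargc1b the leaders were Zmym4 (0.978), Hars2 (0.973) and Ndufs4 (0.973), a complex I subunit.

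Among genes most like those that rose, Nrf1 was followed by March7 (r = 0.987), Mdm2 (0.980) and Ptpn1 (0.979). Mdm2, the ubiquitin ligase of p53 and itself a p53 target, was at 63.9, 57.1 and 48.2 CPM in Normal, 119.1, 120.0 and 121.7 CPM in Cisplatin, and 73.2, 74.4 and 79.6 CPM in RP. As for Nrf1, its 3 groups did not overlap and RP lay between. Ppard was followed by Dhx33 (0.978), Gadd45a (0.959), a DNA damage response gene, and Sf3a2 (0.957). The genes most like Tfam were Abhd17a (0.984), Gnai1 (0.976) and Cst3 (0.966), those most like Ppara were Ptpn3 (0.975), Zfp770 and Fgf1 (0.951), and those most like Nrip1 were Mtrf1l (0.938), Dusp7 (0.931) and Zfp383. The Esrra row was most like Wbp11 (0.995), Trmt112 (0.995) and Hexa (0.994).

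The genes known as oxidative targets of PGC-1 and ERR, which encode respiratory chain, citric acid cycle and related proteins, mostly fell after cisplatin, as Ppargc1a, Ppargc1b and Esrrg did. Of 31 tested, 21 fell and 1 rose after cisplatin, with a median log2 difference of -0.72, where 28.2% of all genes fell and 26.3% rose. In RP against Cisplatin 20 rose and 0 fell with edgeR (also 0 fell with DESeq2 and with limma-voom; 23 genes had an unadjusted p under 0.05), median 0.65, where 24.6% of all genes rose and 24.2% fell. Mb, which encodes myoglobin, the oxygen store of oxidative fibres, was at 3511 ± 1841 CPM in Normal, 613 ± 88 in Cisplatin and 2151 ± 481 in RP (SD, n = 3). It fell by 2.52 (log2) after cisplatin (adjusted p = 1.55e-05) and was 3.51-fold higher in RP than in Cisplatin (adjusted p = 0.000252).

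Ckmt2, the mitochondrial creatine kinase of muscle, fell by 2.27 (adjusted p = 5.54e-06), Fndc5, the precursor of irisin, by 2.34 (adjusted p = 1.68e-05) and Idh3a, a subunit of isocitrate dehydrogenase, by 1.28 (adjusted p = 8.09e-06) in Cisplatin against Normal. They were higher by 1.96, 1.53 and 1.07 in RP against Cisplatin. The 1 gene of the list that rose was Mfn2, a mitochondrial fusion gene (0.37, adjusted p = 0.0400), whose call was lost in 7 of 18 alternatives, among them without Normal 1, Normal 2, Cisplatin 1 or Cisplatin 3 (adjusted p 0.0637 to 0.146).

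**Figure D4:**
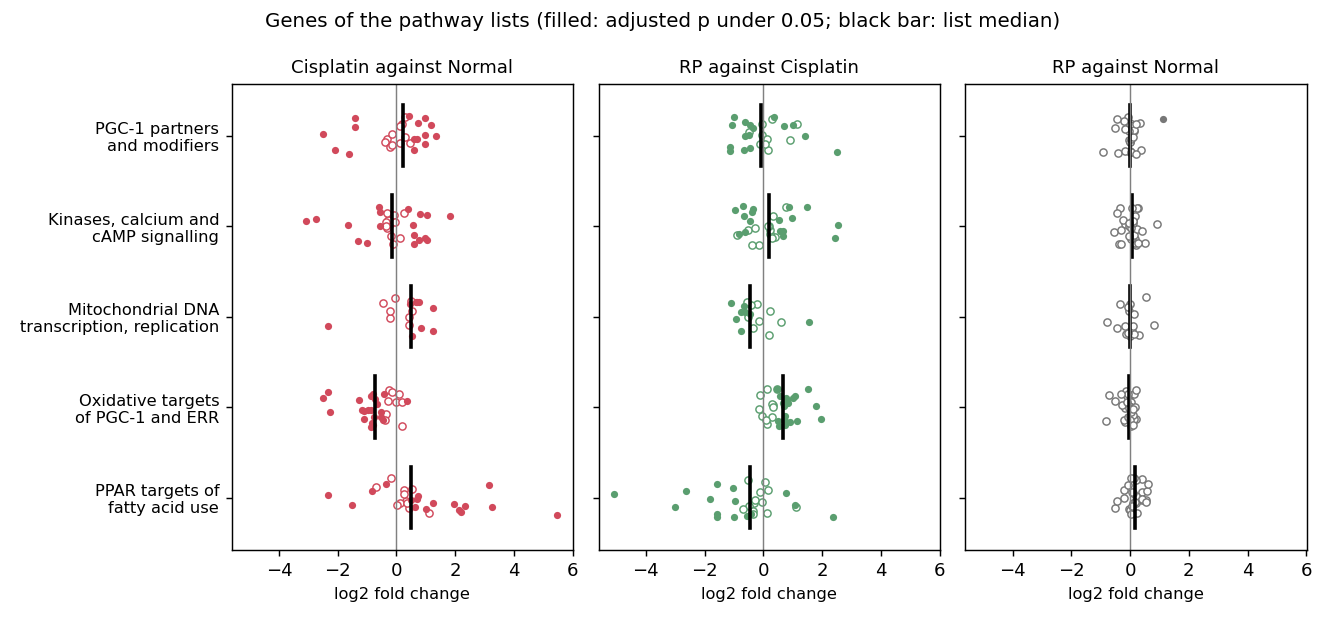
Log2 fold change of each gene (points; filled where the adjusted p was under 0.05) of 5 pathway lists in the 3 comparisons, with the list median (black bar). Oxidative targets lie mostly below 0 in Cisplatin against Normal (median -0.72) and above 0 in RP against Cisplatin (0.65), while the medians of the mitochondrial DNA and PPAR lists have the opposite signs (0.48 and 0.51, then -0.47 and -0.45).

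Of 17 tested genes that transcribe and copy mitochondrial DNA, 8 rose, 1 fell and 8 did not pass after cisplatin (median 0.48), and 1 rose and 7 fell in RP against Cisplatin (median -0.47). With both directions counted, the share that passed, 52.9% and then 47.1%, was no higher than the 54.5% and 48.8% of all genes. By direction, 26.3% of all genes rose and 28.2% fell in the first comparison, and 24.6% rose and 24.2% fell in the second. Tfb2m, the mitochondrial transcription factor that works beside Tfam, was at 42.3 ± 3.0 CPM in Normal, 68.0 ± 13.4 CPM in Cisplatin and 43.7 ± 2.5 CPM in RP (SD, n = 3). It rose by 0.68 (adjusted p = 0.00179) and fell by 0.64 (adjusted p = 0.00345). Ssbp1, the single-strand DNA binding protein of mitochondria, rose by 0.84 (adjusted p = 0.000158), and Polg, the mitochondrial DNA polymerase, by 1.25 (adjusted p = 2.64e-05). The end of Polg overlaps Fanci on the other strand, which held 32.6% as many counts as Polg (r = 0.923), so part of its reads may be from Fanci. The 1 that fell was Mterf2, a mitochondrial transcription termination family gene, by 2.35 (adjusted p = 6.69e-06), from 21.7 ± 4.3 CPM to 4.23 ± 0.91, and it stood at 12.5 ± 3.1 in RP.

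Of 28 targets of the PPARs in fatty acid use that were tested, 13 rose, 4 fell and 11 did not pass in Cisplatin against Normal (median 0.51), and 3 rose and 12 fell in RP against Cisplatin (median -0.45). With both directions counted, the share that passed, 60.7% and then 53.6%, was near the 54.5% and 48.8% of all genes. By direction, 26.3% of all genes rose and 28.2% fell after cisplatin, and 24.6% rose and 24.2% fell in RP against Cisplatin. Acot2, a mitochondrial acyl-CoA thioesterase, was at 69.9 ± 14.4 CPM in Normal, 663 ± 65 in Cisplatin and 83.0 ± 26.6 in RP (SD, n = 3), and rose by 3.25 (adjusted p = 1.26e-07). Its near-identical neighbour Acot1 rose by 5.48 (adjusted p = 1.92e-08); reads may be shared between the 2, so neither value is certain. Mlycd, the malonyl-CoA decarboxylase that relieves the block on fatty acid entry into mitochondria, rose by 2.35 (adjusted p = 7.76e-08) and fell by 1.81 (adjusted p = 7.52e-07) in RP against Cisplatin. Ucp3, a muscle uncoupling protein, rose by 1.95 (adjusted p = 4.26e-06). Pdk4, the kinase that turns off pyruvate dehydrogenase, was at 80.7, 273 and 138 CPM in Normal, 1639, 2062 and 699 CPM in Cisplatin, and 223, 206 and 287 CPM in RP. All Cisplatin libraries lay above all the others for Pdk4.

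Partners and modifiers of the PGC-1 proteins moved in both directions. Of 26 tested, 10 rose and 5 fell in Cisplatin against Normal (median 0.23), and 5 rose and 11 fell in RP against Cisplatin (median -0.08). That is 57.7% and 61.5% that passed, beside 54.5% and 48.8% of all genes. Rxrg, the retinoid X receptor of muscle and a heterodimer partner of the PPARs, fell by 2.51 (adjusted p = 4.66e-07), from 39.5 ± 7.0 CPM to 6.98 ± 1.72, and stood at 39.5 ± 3.0 in RP (SD, n = 3). Its relative Rxra rose by 0.73 (adjusted p = 0.000386). Yy1, a DNA-binding partner of PGC-1α, rose by 1.18 (adjusted p = 2.61e-05), and Lpin1, a phosphatidate phosphatase that also coactivates with PGC-1α, rose by 1.33 (adjusted p = 5.76e-05).

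A further 3 of this list were named after their values were seen. Pprc1, the third member of the PGC-1 family, rose by 0.98 (adjusted p = 0.00378), opposite to Ppargc1a and Ppargc1b. It was at 6.52, 6.01 and 7.22 CPM in Normal, 12.3, 14.3 and 12.3 CPM in Cisplatin, and 6.41, 4.67 and 8.58 CPM in RP. Perm1, a muscle regulator induced by PGC-1 and ERR, fell by 1.41 (adjusted p = 0.000451) and was higher by 1.01 in RP against Cisplatin (adjusted p = 0.00529). Without Normal 3 its fall was 0.91 (adjusted p = 0.000573). Esrrb, the third ERR gene, was under 6 CPM in every library and fell by 2.08 (adjusted p = 0.00503), a call lost without Normal 3 (-1.45, adjusted p = 0.0502).

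Of 30 upstream kinases and calcium or cAMP signalling genes tested, 10 rose and 8 fell after cisplatin (median -0.15), and 9 rose and 8 fell in RP against Cisplatin (median 0.21). The share that passed, 60.0% and then 56.7%, compares with 54.5% and 48.8% of all genes. With library size as the only scaling the latter split was 14 and 5. Mef2c, a transcription factor that acts on the Ppargc1a promoter in muscle, was at 2025 ± 97 CPM in Normal, 302 ± 53 in Cisplatin and 1634 ± 49 in RP (SD, n = 3). It fell by 2.75 (adjusted p = 5.36e-08) and was higher by 2.44 in RP against Cisplatin (adjusted p = 1.60e-07). Prkag3, the AMP-activated kinase subunit of fast glycolytic muscle, fell by 3.09 (adjusted p = 8.12e-07), Camk2a, a calcium-calmodulin kinase, by 1.66 (adjusted p = 2.38e-06) and Fnip1, a partner of folliculin, by 0.998 (adjusted p = 3.07e-05).

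In RP against Normal 1 gene of these 5 lists passed with edgeR. Nr1d1, which encodes the clock repressor REV-ERBα, rose by 1.11 (SE 0.15, adjusted p = 0.00318). It was at 25.8, 36.7 and 31.5 CPM in Normal, 42.9, 42.5 and 39.6 CPM in Cisplatin, and 60.3, 71.2 and 71.2 CPM in RP, so every RP library was above all the others. The end of Nr1d1 overlaps Thra on the other strand, which held 65.4% as many counts (r = 0.449), and reads of the 2 cannot be told apart. For the other 4 lists 0 genes passed with edgeR and with limma-voom; DESeq2 gave 1 risen PPAR target. At an unadjusted p under 0.05 there were 5 upstream, 2 mitochondrial DNA, 3 oxidative and 2 PPAR target genes.

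Markers of other cells in the muscle moved with the groups as well. The 10 fibroblast markers summed to between 3772 and 6049 CPM in Normal libraries, between 537 and 1022 CPM in Cisplatin libraries and between 2509 and 3677 CPM in RP libraries; 9 of 10 fell after cisplatin and 10 of 10 rose in RP against Cisplatin. The 12 adipocyte markers summed to 2513 to 5475, 1574 to 2160 and 2923 to 3644 CPM, with Ucp1 at 0 in the Cisplatin and RP groups; 9 of the 11 tested fell and then 9 were higher in RP. One adipocyte marker went the other way in each comparison. The 11 macrophage markers ran from 243 to 298, 51.8 to 98.3 and 115 to 184 CPM, and the 12 endothelial markers from 453 to 514, 362 to 470 and 402 to 570 CPM. After cisplatin 9 macrophage markers fell and 1 rose, and 6 endothelial markers fell and 2 rose. In RP against Cisplatin 6 macrophage markers rose and 1 fell, and 4 endothelial markers rose and 1 fell. Of all genes 28.2% fell and 26.3% rose in the first comparison, and 24.6% rose and 24.2% fell in the second. The 7 erythroid markers ran from 5526 to 12186, 42.2 to 78.9 and 80.9 to 552 CPM. In RP against Normal, where 0.319% of all genes fell, all 7 of them fell, as did 1 fibroblast marker. The erythroid rows are not 7 separate measures. Hbb-b1 and Hbb-bs held nearly the same counts in every library (9398 and 9496 in Normal 1), as did Hbb-b2 and Hbb-bt (1933 and 2022). Reads may be shared between these rows, so the erythroid sums may repeat reads. Fibre markers themselves summed to 126698 to 140019, 93360 to 125096 and 128258 to 143758 CPM. Pparg, Fabp4 and Cidec, adipocyte genes picked from the lists above, fell after cisplatin and were higher in RP than in Cisplatin. Not all such genes did so. The mean level of Pnpla2, also an adipocyte marker, was 288 CPM in Normal, 1115 in Cisplatin and 399 in RP. Lpl, a gene of the lists, was at 1578, 2237 and 1116 CPM in the same order. The part of these cells in the regulators' differences was not tested.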

How the data were processed

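Gastrocnemius RNA of 9 libraries (3 per group) was sequenced as Lexogen QuantSeq 3′ libraries from 500 ng of total RNA, per the labels' protocols. The authors deposited raw read counts per gene symbol, 1 table of 23282 rows per library. The tools named by the submitters' processing notes are Bowtie2 and edgeR, with build mm10; versions, strand setting, annotation and the program that counted reads were not given in the sources used here. Counts without molecular identifiers are not independent molecules.

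From the deposited counts, 79 rows sharing 35 symbols were summed. edgeR 4.0.16 (R 4.3.3) was run with filterByExpr, TMM scaling and a quasi-likelihood fit of all 9 libraries with 1 coefficient per group; calls are Benjamini-Hochberg adjusted p under 0.05 over 12859 genes. SE is the log2 fold change over the square root of F. The script was tested on simulated data. Alternatives were other scalings and filters, DESeq2 1.42.0, limma-voom (limma 3.58.1), a replicate block and leaving out each library. Libraries of 1 group differed by a chi-square of 11.3 to 28.9 for each degree of freedom, so none was a copy. Positions and overlaps are from GENCODE M21, promoters from RefSeq; Python 3.11.15 with matplotlib 3.10.9 drew the plots.

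The 9 regulators and the lists were chosen with earlier results of these data known. From each pathway list up to 4 called genes with the smallest p in Cisplatin against Normal are named. For each regulator the 3 genes of highest Pearson r are named too, with unnamed gene models left out. Pprc1, Perm1, Esrrb, Mfn2, Nr1d1, Pdk4, Trmt112 and the levels of Casq2 and Mdm2 were named after their values were seen. The same holds for Tnni2, Pvalb, Mylpf, the myosins and the adipocyte genes of the lists. Camk4 was below the filter, as were 2 mitochondrial DNA genes; mitochondrially encoded transcripts are not analysed here.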

Additional observations from a re-analysis of the deposited data

How the results depend on the processing

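Each of the 9 regulators was refitted under 18 alternatives. In Cisplatin against Normal 137 of 162 values kept direction and call, 22 lost the call and 3 gained it; in RP against Cisplatin 139 kept both and 23 lost the call; in RP against Normal 158 kept both and 1 gained a call. Ppargc1a, Esrrg and the Esrra row kept their calls under all 18 in both comparisons with Cisplatin, and Ppargc1b, Ppard and Nrf1 did so in Cisplatin against Normal. Direction turned in RP against Normal for Nrip1 without Normal 2 (0.0015; range over left-out libraries -0.30 to 0.0015) and for Tfam without Normal 3 (-0.016) and without RP 1 (-0.053; range -0.053 to 0.081). The cause of a lost or turned value was not tested.

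Regulators fallen in Cisplatin against Normal numbered 3 in place of 5 with RLE size factors and 3 without Rn45s. With library size as the only scaling, 1 in place of 3 fell in RP against Cisplatin; the median over all genes then moved from 0.07 to 0.21, and 60.2% of the genes called there rose, not 50.5%, and 60% in place of 36.9% in RP against Normal. With no filter on low counts, Ppara was called in RP against Normal (adjusted p = 0.0164), so 1 regulator was called and 1 fell, 1 oxidative target fell, and 293 of all genes passed in place of 65; DESeq2 passed 229 and called 1 risen PPAR target. Oxidative targets risen in Cisplatin against Normal numbered 0 in place of 1 with library size only, with a 5 CPM filter and with only the 2 groups compared. Upstream genes fallen in RP against Cisplatin numbered 5 in place of 8 with library size only, the 5 CPM filter or only the 2 groups, and 14 in place of 9 rose with library size only. Partners fallen in Cisplatin against Normal numbered 3 in place of 5 with the 5 CPM filter.

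Leaving out 1 library gave 6 to 8 regulators called in Cisplatin against Normal, 3 to 5 of them fallen (3 without Normal 3, Cisplatin 1, Cisplatin 3, RP 2 or RP 3). In RP against Cisplatin it gave 3 to 7 called, 2 to 4 risen and 1 to 3 fallen; 3 were called without Cisplatin 1 or RP 2, and 4 without Cisplatin 2. All genes called in RP against Normal ranged from 22 (without Normal 1 or RP 1) to 116 (without RP 2). Oxidative targets risen after cisplatin ranged from 0 to 2, and in RP against Normal 0 to 1 oxidative target fell and 0 to 1 PPAR target rose (1 without Normal 2 in each). Partners fallen in RP against Cisplatin ranged from 7 to 11 (7 without Cisplatin 3 or RP 2), and upstream genes fallen there from 5 to 9 (5 without Cisplatin 2 or RP 1).

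With the replicate number as a block, 7 regulators were called in Cisplatin against Normal and 6 in RP against Cisplatin, and only Tfam lost its calls (adjusted p = 0.0581 and 0.0515). Deviations of same-numbered libraries correlated between -0.15 and 0.18, and those of differently numbered libraries between -0.21 and 0.13. With values this weak and 3 libraries per group, whether the numbers pair the samples cannot be told. Genes with few counts, such as Esrrg in the Cisplatin group, carry wide counting error.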
